A study of Mus musculus with 2 samples.

Results

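The complement components and receptors described here are 9 genes, namely the C1q chains C1qa, C1qb and C1qc, the central component C3, factor B (Cfb), properdin (Cfp), the anaphylatoxin receptors C3ar1 and C5ar1, and complement receptor 2 (Cr2). They were chosen by name. Every probe set annotated with a single gene symbol that is among the 9 was taken, which gave 11 probe sets for 8 genes out of 20380 probe sets for 12393 genes in all. C3 had no such probe set and was not analysed here. RNA came from splenocytes of male DBA/1 mice, obtained at 6 to 8 weeks of age, and was taken at day 10 after intradermal immunization in complete Freund's adjuvant. The GPI-immunized group had received 300 μg of glucose-6-phosphate isomerase joined to glutathione S-transferase (GPI-GST), which induces arthritis, and the control-immunized group 100 μg of GST alone. Both groups thus shared the adjuvant and the GST part. The protein dose differed between them by mass, as did the molecular weight of the protein, 89 kDa for GPI-GST and 26 kDa for GST. The study harvested 3 spleens for each condition and hybridized 1 array (Affymetrix mouse 430A 2.0) for each. The sources used here do not say if the RNA of the 3 was combined. With 1 array per group there was no replicate check, no test and no p-value, and each ratio below describes these 2 arrays.

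Complement is a cascade of plasma proteins that marks microbes and immune complexes for removal. The classical pathway begins when C1q binds antibody, the alternative pathway amplifies C3 cleavage through factor B and is stabilized by properdin, and both release the small peptides C3a and C5a, which act on the receptors C3ar1 and C5ar1 of myeloid cells. In the spleen, C1q is made mainly by macrophages, and Cr2, which binds C3 fragments and lowers the threshold for B cell activation, is carried by B cells and follicular dendritic cells. In the mouse the Cr2 gene gives rise to both CR2 and CR1 by alternative splicing.

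The highest ratio among the measured genes belonged to the C5a receptor, while the C1q chains and properdin differed little between the arrays and Cr2 was slightly lower after GPI immunization. C5ar1 had a signal of 109.4 on the GPI-immunized array, against 36.7 on the control array, for a ratio of 2.98. The C1q chains had ratios between 1.16 and 1.24, Cfp had 1.05 and Cr2 had 0.794. The signals of Cfb and C3ar1 lay at the level of bacterial control probe sets on both arrays. A signal here is the brightness of a probe set, on the linear scale in which it was deposited, and the ratio is the GPI-immunized over the control signal. A gene with several probe sets is represented by the one with the highest mean log2 signal.

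**Figure D1:**
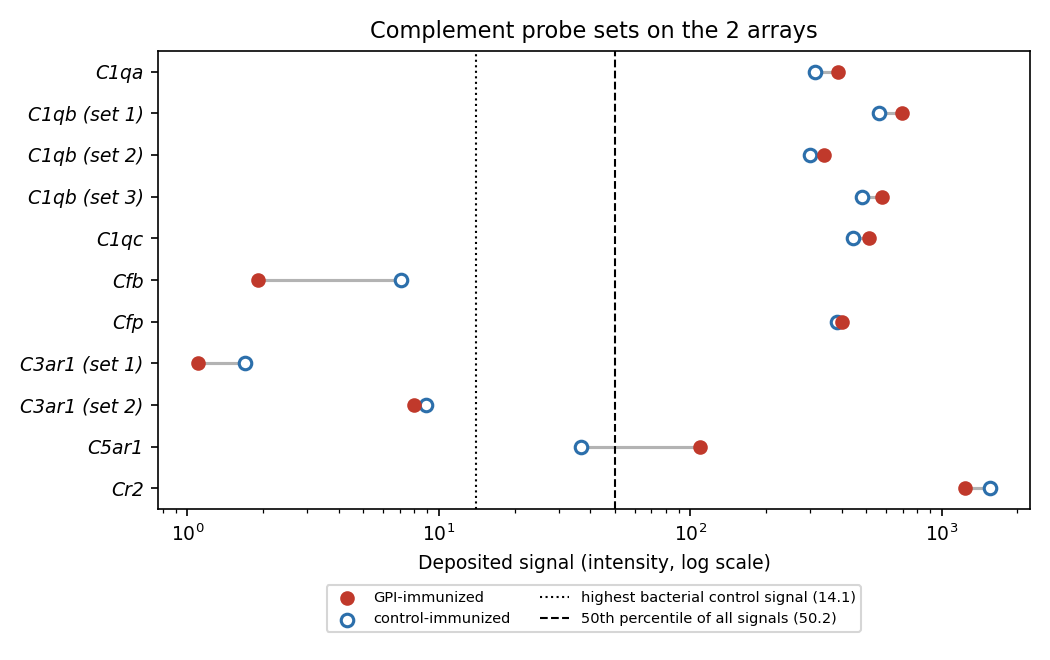
Deposited signal (horizontal axis, log scale) of the 11 complement probe sets on the GPI-immunized array (filled) and the control array (open), 1 array per group. C5ar1, at 109.4 and 36.7, has the widest gap among the probe sets to the right of the dotted line, and Cfb and C3ar1 lie to the left of that line (14.1, the highest bacterial control signal).

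Genes were called at a 2-fold ratio where the higher of their signals was at least 50.2, the 50th percentile over both arrays together. Of the 8 measured complement genes, 6 met this limit and 2 (Cfb and C3ar1) did not. Of the 6, 1 (C5ar1) was at least 2-fold higher, beside 2.23% of the 6961 genes over the whole array that met the limit. None was at least 2-fold lower (0 of 6, beside 0.445% of all genes). Ratios above 1 were found for 5 of the 6, against 57.5% of all genes, and a ratio below 1 for 1 (Cr2), against 42.4% of all genes. The median log2 ratio of the 6 was 0.26, against 0.06 over all genes. C5ar1 met the limit only through its GPI-immunized signal, so that its presence among the 6 is not independent of its ratio.

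The medians of the arrays were 51.8 for GPI-immunized and 48.65 for control over 22626 probe sets, and the rank correlation between the arrays was 0.966. Signals of 27 control probe sets for Bacillus transcripts, which mouse cells do not make, reached 7.2 on the GPI-immunized array, against 14.1 on the control array. The ratio of the 3′ to the 5′ probe set was 1.42 on the GPI-immunized array, against 1.49 on the control array for β-actin, and 0.839 and 0.946 in the same order of arrays for Gapdh. As a technical yardstick, log2 ratios of probe sets for the same gene scattered with an SD of 0.28, a factor of 1.21 (2538 genes). This SD was 0.31 for probe sets with signals up to 200, 0.22 from 200 to 1000 and 0.27 above. Differences between mice or between hybridizations are not part of this SD. Lymphoid and erythroid markers of spleen were read on both arrays, and 11 of 12 measured B cell markers, 11 of 13 measured T cell markers (median ratio 0.718, all 11 below 1) and 6 of 7 measured erythroid markers (median ratio 0.975) met the limit.

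The C1q chains, which assemble together into 1 recognition molecule, had similar ratios on all their probe sets. C1qa (Entrez Gene 12259) had a signal of 385.9 on the GPI-immunized array, against 313.2 on the control array, for a ratio of 1.23. C1qb (Entrez Gene 12260) had 693.4 on the GPI-immunized array, against 560.7 on the control array, for a ratio of 1.24. Its other probe sets, whose design allows some probes to match further transcripts, had 576.1 and 340.5 on the GPI-immunized array against 481.9 and 298.2 on the control array, ratios of 1.20 and 1.14. All of these signals were higher on the GPI-immunized array. C1qc (Entrez Gene 12262) had 512.8 on the GPI-immunized array, against 443.2 on the control array, for a ratio of 1.16. The 5 probe sets had a mean log2 ratio of 0.25 ± 0.05 (SD, n = 5 probe sets), a ratio of 1.19. Probe sets of 1 gene scattered with an SD of 0.22 at such signals. The log2 ratios of the chains, 0.21 to 0.31, were of about that size, so that the difference in a single chain was not clearly larger than the technical spread. Other scalings of the arrays (to a common median, by quantiles or by loess) brought the ratios of the 3 chains to between 1.09 and 1.18, all above 1. Of all genes that met the signal limit, 78.2% had a lower ratio than C1qa, 78.6% than C1qb and 69.6% than C1qc.

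The genes of the 3 chains also lie next to each other on mouse chromosome 4, in the order C1qb, C1qc, C1qa with no other protein-coding gene between them in the RefSeq table. The promoters of C1qb and C1qc are shown as those of neighbouring genes with similar ratios, and beside them those of C5ar1, the gene with the highest ratio, and Cr2, the only one of the 6 with a ratio below 1. Each runs from 250 bases before the start of the gene to 50 bases after it (RefSeq, GRCm38.p6), read on the strand of the gene, which is the minus strand in all 4 cases. Capitals mark the letters GAGGAA on either strand (TTCCTC where it is on the other strand), the core of the site bound by PU.1, a transcription factor of macrophages, neutrophils and B cells.
C1qb (chr4:136886151-136886450): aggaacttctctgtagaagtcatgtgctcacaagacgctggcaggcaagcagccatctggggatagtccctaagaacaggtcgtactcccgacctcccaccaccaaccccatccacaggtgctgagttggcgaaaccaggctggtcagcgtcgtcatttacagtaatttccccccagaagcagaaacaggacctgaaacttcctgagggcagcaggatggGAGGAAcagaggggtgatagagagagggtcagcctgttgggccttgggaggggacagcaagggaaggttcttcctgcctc
C1qc (chr4:136892865-136893164): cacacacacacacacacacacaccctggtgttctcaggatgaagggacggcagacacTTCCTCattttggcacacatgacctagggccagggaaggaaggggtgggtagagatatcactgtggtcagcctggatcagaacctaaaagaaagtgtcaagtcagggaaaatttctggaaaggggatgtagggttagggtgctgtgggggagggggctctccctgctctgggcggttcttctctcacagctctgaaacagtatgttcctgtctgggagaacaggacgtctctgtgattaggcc
C5ar1 (chr7:16259289-16259588): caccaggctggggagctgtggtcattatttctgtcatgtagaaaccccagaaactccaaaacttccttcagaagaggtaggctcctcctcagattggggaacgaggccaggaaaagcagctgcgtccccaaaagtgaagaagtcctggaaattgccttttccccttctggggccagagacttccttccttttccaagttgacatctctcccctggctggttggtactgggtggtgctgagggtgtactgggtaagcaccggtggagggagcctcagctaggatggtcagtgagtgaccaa
Cr2 (chr1:195176670-195176969): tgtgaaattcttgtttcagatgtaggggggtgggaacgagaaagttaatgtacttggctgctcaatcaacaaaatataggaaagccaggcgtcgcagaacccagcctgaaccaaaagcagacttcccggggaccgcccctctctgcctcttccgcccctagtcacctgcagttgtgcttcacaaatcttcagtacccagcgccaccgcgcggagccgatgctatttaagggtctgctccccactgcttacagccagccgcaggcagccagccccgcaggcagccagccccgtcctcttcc
The core stood in the C1qb promoter with its first base at position -30 from the start and in the C1qc promoter at -193, on opposite strands. It was also present at 7 and 23 in the promoter of Cfp, and thus in 3 of the 7 complement genes whose promoter is in the table used. The windows of C3, C3ar1, C5ar1 and Cr2 did not hold these letters. Of 32851 promoters of the same length, 28.3% held them. The C/EBP letters TTGCNNAA were found on either strand in 1 of the 7, that of C3, and in 10.8% of all promoters, and the STAT letters TTCNNNGAA in 0 of the 7 and 8.3% of all. No match overlapped one of another motif. A match, or its absence, describes the letters of this window only.

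Markers of resident splenic macrophages are given beside the C1q chains, since these cells are the known main source of C1q. Of 15 such markers 14 had a probe set and 12 met the signal limit, with a median ratio of 1.09 (1.03 to 1.05 with the other scalings). Of these 12, 10 had ratios above 1 and 1 was at least 2-fold higher, Cd5l, a secreted protein of macrophages, with signals of 338.8 on the GPI-immunized array, against 119.5 on the control array (ratio 2.84). Over all genes, 57.5% had ratios above 1. Haem oxygenase Hmox1, which degrades haem in red pulp macrophages, had a ratio of 1.73, the lysosomal marker Cd68 had 1.18 and the CSF-1 receptor Csf1r had 1.15. Other macrophage markers lay closer to a ratio of 1 or under it, with Spic at 1.08, Vcam1 at 1.02, Cd163 at 1.00, Mertk at 0.985 and Adgre1 at 0.901. Further probe sets of these genes above the limit had higher ratios, 1.17 and 1.33 for Vcam1, 1.16 for Spic and 1.23 and 1.37 for Csf1r. Slc40a1 had 1.14, and 1.40 for its other probe set. The summed signal of the 14 was 6766.1 on the GPI-immunized array, against 5797.3 on the control array, for a ratio of 1.17, beside 1.21 for the sum of the 3 C1q chains. Marco and Siglec1, markers of marginal zone macrophages, lay at the level of the bacterial controls on both arrays. With each gene read from the probe set that represents it, ratios of 10 of the 12 markers were under those of C1qa and C1qb. Those of 9 were under that of C1qc. With all probe sets of a gene averaged, the median ratio of the markers was 1.17. In that setting C1qa had 1.23, C1qb 1.19 and C1qc 1.16. The part of macrophage numbers in the C1q ratios was not tested. In whole splenocytes, a different number of cells of a type and a different amount of RNA per cell cannot be told apart.

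Of the alternative pathway genes, properdin was read well above background and factor B was not. Cfp (Entrez Gene 18636), the plasma protein that stabilizes the C3 convertase and is made by neutrophils, monocytes and macrophages, had a signal of 402.2 on the GPI-immunized array, against 384.3 on the control array. Its ratio of 1.05 lay at the middle of all genes, 51.5% of which had a lower ratio, and moved to 0.983 when each array was divided by its median and to 0.999 with quantile normalization, so it has no settled direction. All 14 neutrophil markers and all 7 monocyte markers that met the limit had higher ratios than Cfp, as did 7 of 12 macrophage markers. Cfb (Entrez Gene 14962), the protease of the alternative convertase, had signals of 1.9 on the GPI-immunized array, against 7.1 on the control array. Both lie under 14.1, and Cfb is therefore left without a ratio. Its neighbour on chromosome 17 is C2, the corresponding protease of the classical pathway, whose signals were also under 14.1 on both arrays.

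The receptors for C3a and C5a gave different pictures. C5ar1 (Entrez Gene 12273), the receptor through which C5a attracts and activates neutrophils and monocytes, had a ratio of 2.98, a log2 ratio of 1.58, from its only probe set. The technical SD at such signals was 0.31, which does not include differences between mice or between hybridizations. Of all genes that met the limit, 99.5% had a lower ratio than C5ar1. As C5ar1 met the limit only through its GPI-immunized signal, this rank is not independent of its ratio. The control signal of 36.7 lay above the highest bacterial control signal but under the 50th percentile. Raising all signals to at least that percentile gave a ratio of 2.18, and the 3 other scalings gave 2.76 to 2.81, so the 2-fold call held under each of these settings. A signal limit at the 75th percentile left C5ar1 out. The second C5a receptor, C5ar2, lies next to C5ar1 on chromosome 7 and had no probe set with a single symbol. C3ar1 (Entrez Gene 12267) had signals of 8.0 and 1.1 for its probe sets on the GPI-immunized array and 8.9 and 1.7 on the control array. All 4 signals lay under 14.1, and the C3a receptor is therefore left without a ratio.

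**Figure D2:**
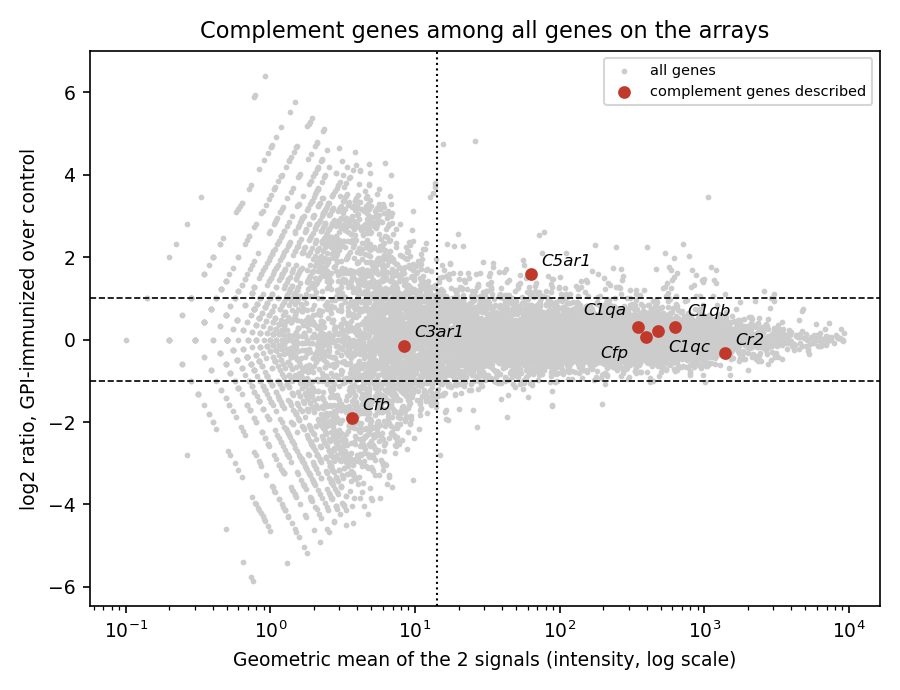
Log2 of the GPI-immunized over the control signal (vertical axis) against the geometric mean of the 2 signals (horizontal axis, log scale), 1 point per gene, with 1 array per group. C5ar1, at a log2 ratio of 1.58, lies above the dashed line of a 2-fold ratio, the C1q chains, Cfp and Cr2 lie within the bulk of genes, and Cfb and C3ar1 lie left of the dotted line (14.1), where ratios scatter widely.

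Neutrophil and monocyte markers that met the limit were higher on the same array as C5ar1. Of 18 neutrophil markers, 14 had a probe set and met the limit, all 14 had ratios above 1 and 7 were at least 2-fold higher, with a median ratio of 2.04 (1.91 to 1.97 with the other scalings). The collagenase Mmp8 had 3.28, the gelatinase Mmp9 3.26, the chemokine receptor Cxcr2 3.26 and Ceacam10 2.97. Cxcr2 (76.6 on the GPI-immunized array, against 23.5 on the control array) and Ceacam10 (91.3 on the GPI-immunized array, against 30.7 on the control array) met the limit only through the array on which they are high, and the list's median ratio was 1.87 once every signal below the 50th percentile was set to it. The summed signal of the 14 was 50962.4 on the GPI-immunized array, against 35005.0 on the control array, for a ratio of 1.46. The brightest of these markers differed less, with ratios of 1.12 for S100a9, 1.18 for S100a8 and 1.31 for Ngp. Of 11 monocyte markers, 8 had a probe set and 7 met the limit, all 7 with ratios above 1 and 2 at least 2-fold higher (median ratio 1.85, summed signal of the 8 genes 2781.9 on the GPI-immunized array, against 1519.8 on the control array). These 2 were the lipopolysaccharide co-receptor Cd14 (4.93) and the coagulation factor subunit F13a1 (2.70). Fcgr1 (74.6 on the GPI-immunized array, against 40.4 on the control array) met the limit only through its GPI-immunized signal. Its ratio of 1.85 is also the median of the monocyte markers. With every signal below the 50th percentile set to it, that median was 1.78 and the ratio of C5ar1 was 2.18. None of the measured neutrophil or monocyte markers lay at or below the bacterial control level by the probe set that represents the gene. Other probe sets of Ceacam10 (1.6 on the GPI-immunized array, against 0.9 on the control array) and Cx3cr1 (11.4 and 1.6 on the same arrays) did. The ratio of C5ar1 was higher than those of 11 of 14 neutrophil markers and 6 of 7 monocyte markers, and was 1.46 times the neutrophil median and 1.61 times the monocyte median. On the log2 scale C5ar1 had 1.58, against a median of 1.03 for the neutrophil markers and 0.88 for the monocyte markers. The SD of the log2 ratios was 0.54 among the neutrophil markers and 0.63 among the monocyte markers. The part of neutrophil and monocyte numbers in the ratio of C5ar1 was not tested.

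Cr2 (Entrez Gene 12902) was lower on the GPI-immunized array, with a signal of 1236.2 there and 1557.5 on the control array. Its ratio was 0.794, a log2 ratio of -0.33, compared with a technical SD of 0.27 at such signals, and 11.3% of all genes had a lower ratio. The 3 other scalings gave 0.745 to 0.764. The probe set is annotated to Cr2 as a whole, and how its signal divides between CR2 and CR1 cannot be read from it. Of 14 B cell markers, 12 had a probe set and 11 met the limit. All 11 had ratios below 1, with a median of 0.74 (0.695 to 0.705 with the other scalings), and 1 was at least 2-fold lower, the low-affinity IgE receptor Fcer2a (0.491). The other probe set of Fcer2a, also above the limit, had a ratio of 0.6. The inhibitory co-receptor Cd72 had 0.612 and the kinase Blk 0.674. The summed signal of the 12 was 13161.5 on the GPI-immunized array, against 17509.8 on the control array, for a ratio of 0.752. The ratio of Cr2 was 1.07 times the median of the B cell markers, with 8 of the 11 under it and 3 above it. Such ratios were not particular to B cell markers. The 11 T cell markers that met the limit had ratios of 0.509 to 0.873 (median 0.718). Of 4 dendritic cell markers that met it, 3 had ratios below 1 and 1 above (median 0.796). Among marginal zone B cell markers, a subset known for high Cr2, 4 of the 5 that met the limit had ratios below 1 (median 0.68), with the lipid-presenting molecule Cd1d1 at 0.498 and the tetraspanin Cd9 at 1.81. A second probe set of Cd1d1 above the limit had a ratio of 0.697. Of the follicular dendritic and stromal markers, 10 of 12 had a probe set and 2 met the limit, with ratios on either side of 1. Mfge8, a protein of follicular dendritic cells that binds dying cells, had 39.2 on the GPI-immunized array, against 66.2 on the control array (ratio 0.592), and the ectoenzyme Bst1 had 61.3 on the GPI-immunized array, against 25.6 on the control array (ratio 2.39). Each met the limit on 1 array only. Below the limit, Fcamr was at the bacterial control level and Cxcl13 was at 17.8 on the GPI-immunized array, against 15.9 on the control array. Whether a different number of B cells or follicular dendritic cells accounts for the ratio of Cr2 was not tested.

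**Figure D3:**
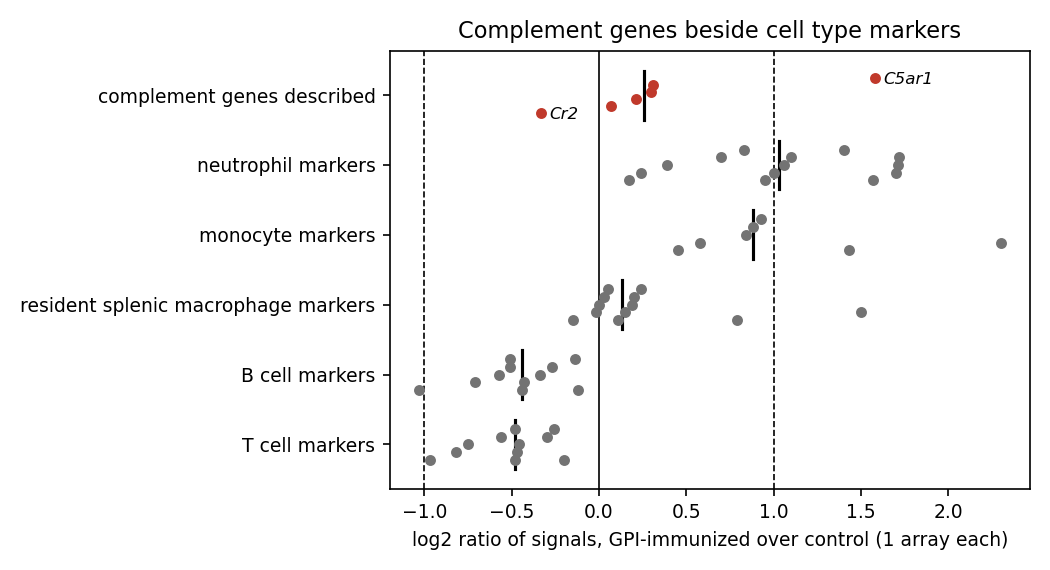
Log2 of the GPI-immunized over the control signal (horizontal axis) for the complement genes and 5 cell type marker lists, 1 point per gene that met the signal limit, with the median of each row as a vertical bar and 2-fold ratios dashed, 1 array per group. C5ar1 (1.58) lies among the upper neutrophil and monocyte markers, Cr2 (-0.33) within the range of the B cell and of the T cell markers, and the C1q chains near the macrophage markers.

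Most of the remaining complement genes with a probe set did not meet the signal limit. Of a list of 41, 31 had a probe set, 12 met the signal limit and 15 had both signals at or below 14.1. Of the 12, 1 was at least 2-fold higher, beside 2.23% of all genes, and 0 at least 2-fold lower, beside 0.445% of all genes, with a median log2 ratio of 0.19, against 0.06 over all genes. C6 and Clu, described below, met the limit only through their GPI-immunized signals, so that their presence among the 12 is not independent of their ratios. Among components of the classical and lectin pathways, only the ficolin Fcna, a lectin made by splenic macrophages, met the limit, with 792.9 on the GPI-immunized array, against 736.1 on the control array (ratio 1.08). C1ra, C1s1 and C2, the proteases of the classical pathway, did not. Of the terminal components, which form the membrane attack complex, C6 had 85.1 on the GPI-immunized array, against 48.5 on the control array, for a ratio of 1.75, while Hc (C5), C8a, C8b, C8g and C9 were at the bacterial control level.

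The 3 regulators of complement on the cell surface that met the limit had ratios below 1, as had 42.4% of all genes. That of Cd55 was the lowest. Cd55 (decay-accelerating factor), which dissociates the C3 convertases, had 498.7 on the GPI-immunized array, against 835.0 on the control array for 1 probe set, a ratio of 0.597, and 390.6 and 830.1 on the same arrays for the other, a ratio of 0.471. The second of these is under 0.5 and the first, which represents the gene, is not. Cd59a, which blocks the membrane attack complex, had a ratio of 0.877 (0.748 for its other probe set). Cr1l (Crry), a cofactor for C3b cleavage that lies next to Cr2 on chromosome 1, had 0.963. Of all genes that met the limit, 1.6% had a lower ratio than Cd55, 21.5% than Cd59a and 36.1% than Cr1l. Of the soluble regulators, clusterin (Clu) had 66.5 on the GPI-immunized array, against 47.4 on the control array, for a ratio of 1.40. Another of its probe sets above the limit had 68.8 on the GPI-immunized array, against 33.1 on the control array (ratio 2.08). The C1q-binding protein C1qbp, found largely in mitochondria, had a ratio of 1.21.

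Among the other receptors, the chains of complement receptor 3 and 4 differed. Itgam (CD11b), the α chain of complement receptor 3 and an integrin of neutrophils and monocytes, had 216.5 on the GPI-immunized array, against 89.7 on the control array, for a ratio of 2.41. The shared β chain Itgb2 had a ratio of 1.32, and Itgax (CD11c), the α chain of complement receptor 4 on dendritic cells, had 0.822. Cd93 had 117.1 on the GPI-immunized array, against 93.5 on the control array (ratio 1.25), and Calr (calreticulin), an endoplasmic reticulum chaperone that can bind C1q, had 1.03. The macrophage receptor Vsig4, which binds C3b, was at the bacterial control level. C5ar1 and Itgam were the 2 of 18 complement genes above the limit that were at least 2-fold higher, beside 2.23% of all genes, and C5ar1 met the limit only through its GPI-immunized signal. Both are carried by neutrophils and monocytes.

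**Figure D4:**
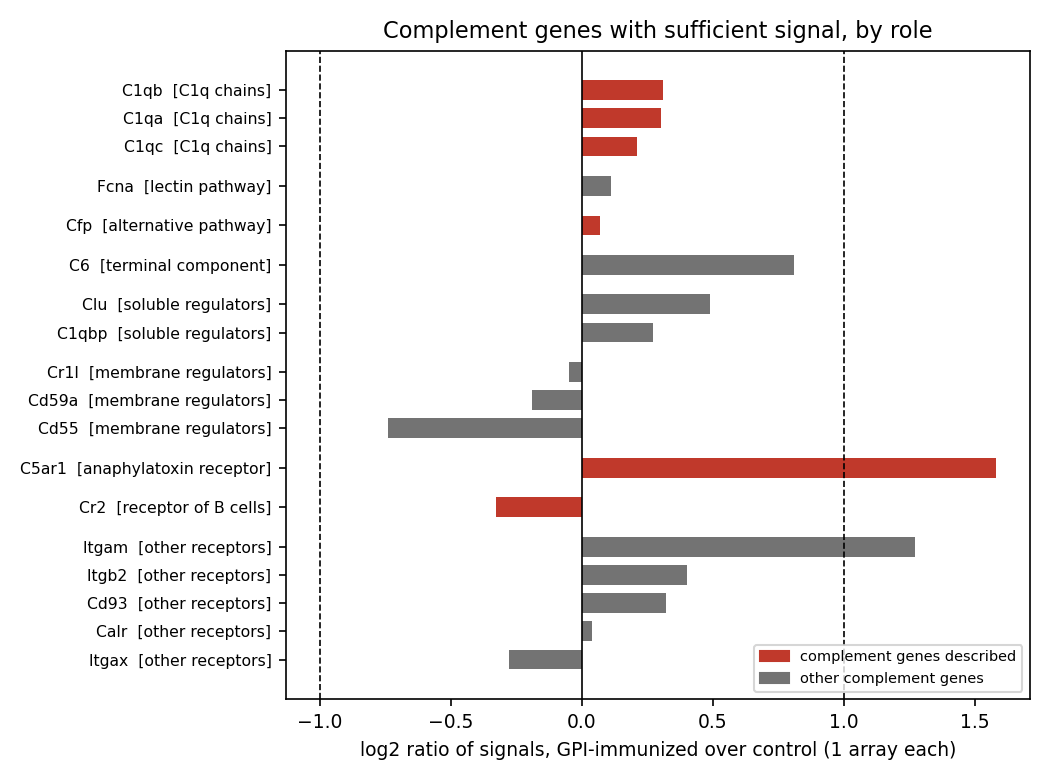
Log2 of the GPI-immunized over the control signal (horizontal axis) for the 18 complement genes that met the signal limit, grouped by role, 1 array per group. C5ar1 (1.58) and Itgam (1.27) pass the dashed line of a 2-fold higher ratio, and Cd55 (-0.74) has the lowest value.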

How the data were processed

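The data are 2 Affymetrix mouse 430A 2.0 arrays, 1 per group, of splenocyte RNA. The authors deposited 1 signal per probe set and array, an intensity on a linear scale. The paper names only gene expression software, so how probes were summarized and arrays scaled is unknown. The labels describe labelled cDNA from a whole-transcript kit and the paper biotinylated cRNA. Both columns were used. Gene names came from the platform annotation, which gives 1 symbol for 20380 of 22626 probe sets, several for 691 and none for 1555. All 8 measured genes were found by Entrez ID in RefSeq (GRCm38.p6). The files name no build, so coordinates are given for RefSeq promoters only.

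Ratios were taken on the deposited scale, with the 3 zeros replaced by 0.1. With 1 array per group, no test was possible, and the number of arrays limits the precision. Genes were called at a 2-fold ratio where the higher signal reached 50.2. All 9 genes, every other complement gene above the limit and up to 4 genes of each marker list furthest from a ratio of 1 were to be named, and not every marker gene or list is printed. Genes named beyond this were chosen after their values were seen. The genes, lists and motifs were chosen with earlier results of these data known. The steps were tested on simulated data. Alternatives covered scaling, low signals, probe set choice, filter and threshold. The software was Python 3.11.15 with statsmodels 0.14.6, numpy 2.4.6, scipy 1.17.1, matplotlib 3.10.9 and pandas 2.3.3.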

Additional observations from a re-analysis of the deposited data

How the results depend on the processing

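Over the other scalings, floors and choices of probe sets, C5ar1 kept ratios between 2.18 and 2.98, the C1q chains between 1.09 and 1.24, and Cr2, where its probe set was not left out, between 0.745 and 0.794, while Cfp lay on both sides of 1 (0.983 to 1.05). The count of complement genes at least 2-fold higher (1, C5ar1) was 0 at 3-fold and 0 with a signal limit at the 75th percentile, which C5ar1 did not meet. The count at least 2-fold lower (0) was 1 without a filter, from the background signals of Cfb. For the other complement genes, the count of higher genes (1) was 3 with all probe sets of a gene averaged, 2 at 1.5-fold, 0 at 3-fold and 0 with that stricter limit. The averaging added Clu and Cd93. Cd93 was added through a probe set with background signals, 13.2 on the GPI-immunized array, against 1.8 on the control array. For the other complement genes the count of lower genes (0) was 6 without a filter and 1 at 1.5-fold. Of 98 comparisons of counts and medians with an alternative, 89 stayed within a factor of 1.5 or the SD of 0.28. Some alternatives left little room for a difference. Raising signals to the 25th percentile or to the highest bacterial control signal left the counts over all genes at 155 and 31. Over all genes, 155 were higher and 31 lower (83.3% higher), against 111 and 47 (70.3%) with each array divided by its median, 1266 and 1105 with no signal limit, 70 and 5 with the stricter limit, 491 and 225 at 1.5-fold, and 35 and 3 at 3-fold. With all probe sets of a gene averaged, 210 of 6962 genes were higher and 72 lower. No paired analysis was possible because each group has 1 array, and for the same reason no replicate could be left out. Signals at the bacterial control level limit what can be said of Cfb and C3ar1.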
